A study of Homo sapiens with 6 samples.

Results

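The 10 genes described here, LCN2, SAA1, SAA2, PIGR, DMBT1, SLPI, C3, DUOX2, DUOXA2 and NOS2, encode secreted and membrane proteins with which a mucosal epithelium meets bacteria. They were selected by name, with their values in the comparisons below already known, so what follows for these genes is a description and carries no p-value. All 10 were found among the 60676 listed genes, and 9 had at least 1 read in some library. RNA sequencing was done on HT29 cells, an established human colorectal adenocarcinoma line, in 6 libraries, 2 for each of 3 groups: untreated cells, cells kept for 48 h in medium without histidine (histidine depletion) and cells kept for 48 h in medium without tryptophan (tryptophan depletion). No genotype or added agent distinguishes the groups. Both depleted media contained dialyzed serum, in RPMI for the cells without histidine and in DMEM F-12 for those without tryptophan. The study's methods name complete RPMI as the control for its proteomics cultures but do not name the medium of the untreated cells sequenced here, so the missing amino acid and the base medium cannot be told apart. The sources do not say whether the 2 libraries of a group came from separate cultures, so the standard errors and p-values measure only the spread between these libraries, which may be technical.

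Lipocalin 2, the product of LCN2, binds bacterial siderophores and withholds iron from bacteria, and it is strongly induced in inflamed colon epithelium. In such epithelium LCN2, the serum amyloid A genes, DUOX2 with its partner DUOXA2 and NOS2 are commonly induced by cytokines of the interleukin and tumour necrosis factor families, through NF-kB, STAT and C/EBP transcription factors. PIGR carries polymeric immunoglobulins across the epithelium, SLPI inhibits neutrophil proteases, DMBT1 is a glycoprotein that binds bacteria, and C3 is the central component of complement. Only transcripts were measured here, not proteins.

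LCN2 stood apart from the other 9 genes in abundance and moved in opposite directions in the depletions. Its normalized count (reads divided by a size factor that was set jointly for the 6 libraries) was 12420 and 13147 in untreated cells, 5826 and 6448 without histidine, and 92965 and 91496 without tryptophan. The 3 groups did not overlap, and the libraries of a group lay close together. Against untreated cells the log2 fold change was -1.05 (SE 0.054, n = 2 libraries per group) after histidine depletion, which is 2.07-fold lower, and 2.84 (SE 0.053) after tryptophan depletion, which is 7.18-fold higher. Between the depletions the level was 15.0-fold lower without histidine than without tryptophan. LCN2 took 0.0245% and 0.0251% of all reads in untreated cells and 0.168% to 0.171% after tryptophan depletion. As RPKM, in which reads are scaled to exon length and to library size so that genes can be compared, LCN2 had a mean of 155 in untreated cells, 65.9 after histidine depletion and 1062 after tryptophan depletion. That placed it at rank 170, 553 and 18 of 19892 protein-coding genes. The bulk libraries do not tell a change in the number of cells that express a gene from a change in the RNA per cell.

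**Figure D1:**
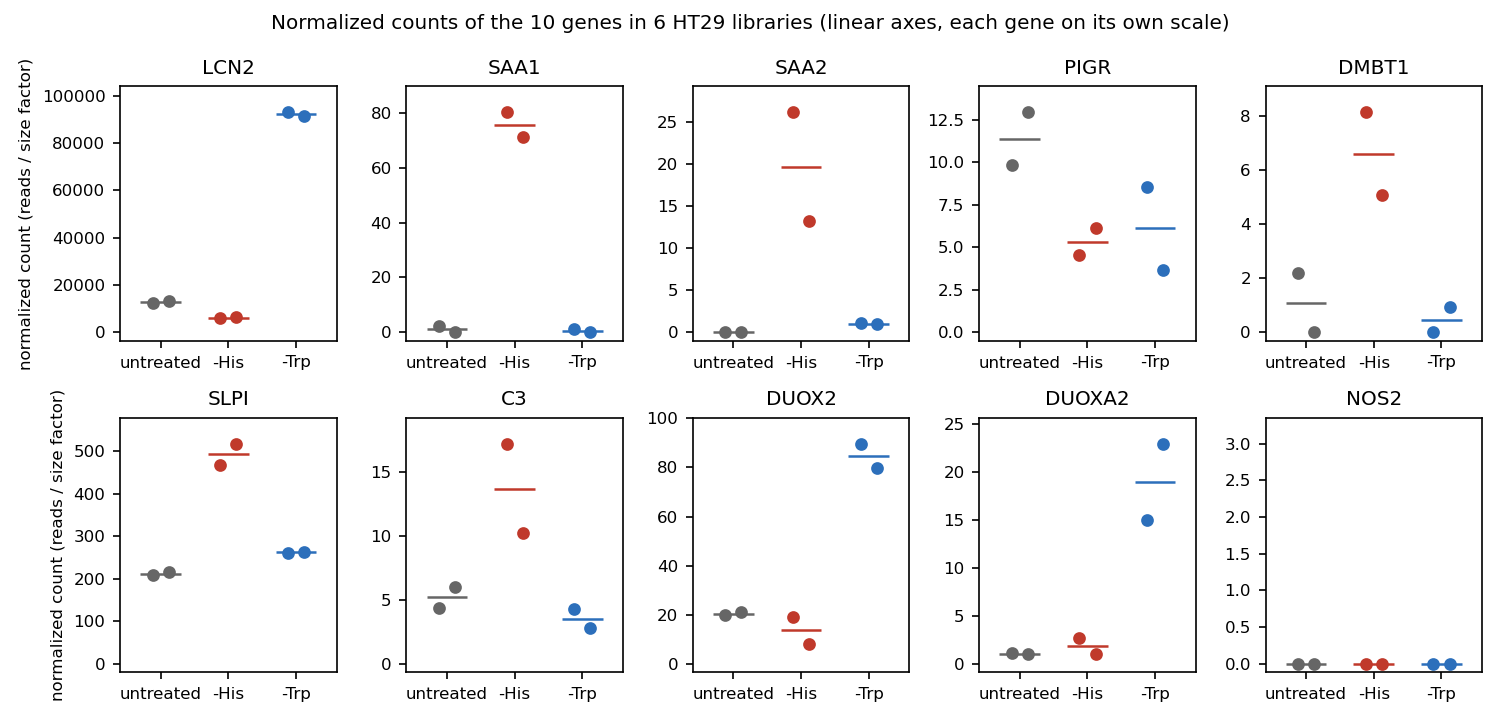
Normalized counts (reads divided by the joint size factor, linear axes, each gene on its own scale) of the 10 genes in the 6 libraries, with a point per library and a line at the mean of each group (untreated, -His for histidine depletion, -Trp for tryptophan depletion). LCN2, DUOX2 and DUOXA2 are highest after tryptophan depletion, SAA1, SAA2, SLPI, C3 and DMBT1 after histidine depletion, and NOS2 has 0 reads in every library.

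LCN2 (ENSG00000148346) lies on the plus strand of chromosome 9 of GRCh38 at 128149071 to 128153453. None of its 50-base sequences occurred in another annotated transcript and no exon of another gene overlapped it. The stretch before its RefSeq start (assembly GRCh38.p14, chr9:128149265-128149440, plus strand) is shown because it holds matches to motifs of regulators described further on. It is the longest part of the 250 bases before the start that no annotated exon covers. The first run of capitals marks a match to the kB consensus, beginning at position -175 from the start, and the second a match to a C/EBP motif (TTNNGCAA), beginning at -143. Both were read on the minus strand.

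LCN2 upstream: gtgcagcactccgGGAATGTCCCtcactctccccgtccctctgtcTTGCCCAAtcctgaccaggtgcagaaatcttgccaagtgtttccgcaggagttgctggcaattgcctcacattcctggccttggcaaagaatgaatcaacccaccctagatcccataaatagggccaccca

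Letters of the kB consensus, searched on both strands in the 250 bases before and 50 after each start, occurred in 11.3% of 35116 RefSeq promoters, and those of the C/EBP motif in 10.5%. The STAT motif (TTCNNNGAA, in 7.66% of all promoters) and the C/EBP-ATF response element (TGATGNAA, in 3.62%) had no match in the 300 bases around the LCN2 start. The RefSeq table used here listed promoters of 5 of the 10 genes, LCN2, PIGR, DMBT1, DUOX2 and DUOXA2. The PIGR promoter had no match to the 4 motifs, and that of DMBT1 had a kB match at position 20, after its start, and a C/EBP match at -197. A match is a description of these letters and does not show binding.

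SAA1 and SAA2 encode the acute phase serum amyloid A proteins, lipid-binding apolipoproteins made by liver and by inflamed epithelium. Their transcripts were all but absent from untreated and tryptophan-depleted cells and present after histidine depletion. The normalized count of SAA1 was 2.19 and 0 in untreated cells, 80.4 and 71.2 without histidine, and 1.07 and 0 without tryptophan. The 2 untreated libraries held 2 SAA1 reads and the histidine-depleted ones 159, a scaled ratio of 73.1 with an exact 95% interval of 19.9 to 608 that covers counting error only, as do all such intervals here. For SAA2 the normalized count was 0 in both untreated libraries, 26.2 and 13.2 without histidine, and 1.07 and 0.916 without tryptophan. SAA2 had 42 reads after histidine depletion against 0 in untreated cells. Only on a floor of 3 reads over the untreated group was it at least 12.9-fold higher. The exact 95% interval of the ratio, which allows for counting error, begins lower, at 10.0. Against tryptophan depletion the SAA2 read ratio was 20.4 (5.31 to 174), from 42 and 2 reads. For both genes the histidine-depleted libraries lay above all 4 others.

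These remained low levels. SAA1 reached a mean of 1.22 RPKM after histidine depletion, rank 9188 of 19892, and SAA2 0.151 RPKM, whereas LCN2 in the same libraries was at 65.9 RPKM. The 2 genes lie on chromosome 11 of GRCh38, SAA1 (ENSG00000173432) at 18266260 to 18269977 on the plus strand and SAA2 (ENSG00000134339) at 18239223 to 18248668 on the minus strand, with 17592 bases between their starts. Of the 50-base sequences of SAA1, 34.2% also occurred in SAA2, so reads can be shared or lost between them, and their separate values are uncertain. Over 366 coding bases of the main transcripts (SAA1-201 and SAA2-201, stop codon left out) they differed at 11 bases, an identity of 97.0%, and 186 bases in a row were identical. The 80-base window of a single exon with the most differences is shown to make visible what separates reads of one gene from reads of the other: coding bases 231 to 310, at chr11:18269717-18269796 (plus strand) for SAA1 and chr11:18245436-18245515 (minus strand) for SAA2, gencode 44 transcripts, with the 8 differing bases in capitals.

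SAA1 coding bases: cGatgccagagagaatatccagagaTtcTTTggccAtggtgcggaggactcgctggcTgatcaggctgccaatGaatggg
SAA2 coding bases: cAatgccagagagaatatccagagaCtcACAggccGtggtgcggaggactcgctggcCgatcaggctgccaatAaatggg

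The neighbouring SAA4, a constitutive member of the family, and the SAA2-SAA4 readthrough transcript had 0 reads in all 6 libraries.

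SLPI, the secretory leukocyte protease inhibitor, was the only one of the 10 genes besides LCN2 with more than 100 normalized counts in every library. Its values were 209 and 216 in untreated cells, 469 and 518 without histidine, and 260 and 264 without tryptophan. The groups did not overlap. The log2 fold change was 1.22 (SE 0.100, n = 2 per group) after histidine depletion, which is 2.33-fold higher, and 0.30 (SE 0.11) after tryptophan depletion, which is 1.23-fold higher and the smallest of the fitted changes among the 10 genes. The latter did not pass the threshold in DESeq2 (log2 fold change 0.29), nor in limma without either tryptophan-depleted library (0.31 and 0.28). Between the depletions SLPI was 1.88-fold higher without histidine. In RPKM its means were 6.91, 14.2 and 8.08. SLPI (ENSG00000124107, chromosome 20, 45252239 to 45254564, minus strand) shared no 50-base sequence with another gene.

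DUOX2 is an oxidase of the apical membrane that makes hydrogen peroxide, and DUOXA2 is the maturation factor it needs to leave the endoplasmic reticulum. Both were highest after tryptophan depletion. DUOX2 was at 19.7 and 20.9 normalized counts in untreated cells, 19.0 and 8.14 without histidine, and 89.6 and 79.7 without tryptophan. Its log2 fold change was 2.00 (SE 0.25) after tryptophan depletion, and all values of that group were above those of the others. After histidine depletion it was -0.65 (SE 0.39), which did not pass the threshold. Replicate 2 alone was low, and without histidine depletion replicate 1 the value was -1.21 and passed, with the remaining library assumed to vary like the untreated pair. DUOXA2 was at 1.09 and 0.995 in untreated cells, 2.71 and 1.02 without histidine, and 14.9 and 22.9 without tryptophan. From 39 reads against 2, the DUOXA2 ratio of tryptophan-depleted to untreated cells was 18.5 (4.78 to 158). The mean levels after tryptophan depletion were 0.161 RPKM for DUOX2 and 0.136 RPKM for DUOXA2, both far under the 1062 RPKM of LCN2.

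DUOX2 (ENSG00000140279, chromosome 15, 45092650 to 45114172, minus strand) and DUOXA2 (ENSG00000140274, 45114326 to 45118421, plus strand) are transcribed away from each other, with starts 154 bases apart. The interval between the starts (GRCh38.p14, chr15:45114173-45114325, plus strand, no annotated exon) is shown because a single C/EBP match, in capitals, lies in both promoters, at -59 from the DUOX2 start and at -102 from the DUOXA2 start. Neither 300-base promoter held a match to the kB, STAT or C/EBP-ATF letters.

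DUOX2 to DUOXA2 interval: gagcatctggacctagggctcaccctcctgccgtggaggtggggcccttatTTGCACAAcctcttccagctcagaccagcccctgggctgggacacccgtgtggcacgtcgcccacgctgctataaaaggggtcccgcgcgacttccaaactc

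The paralogous pair DUOX1 and DUOXA1 lies next to them, also head to head, with starts 5 bases apart. DUOX1 was at 202 and 175 normalized counts in untreated cells, 182 and 171 without histidine, and 275 and 289 without tryptophan. DUOXA1 was at 20.8 and 9.95, 7.23 and 17.3, and 49.1 and 46.7 in the same order. After tryptophan depletion DUOX1 rose by 0.58 on the log2 scale (SE 0.12, limma, adjusted p = 4.09e-06) and DUOXA1 by 1.65 (SE 0.31, adjusted p = 1.05e-06). After histidine depletion neither passed the threshold, with log2 fold changes of -0.09 (SE 0.13) and -0.32 (SE 0.45). The sign of both changed under other settings, for DUOX1 with quantile normalization or without untreated replicate 1, and for DUOXA1 without untreated replicate 1 or histidine depletion replicate 1. DUOXA2 shares 27.7% of its exon bases with the opposite strand of DUOXA1, and whether strand was used in counting is not given in the sources used here, so reads of this pair may not be fully separated. Of the 50-base sequences of DUOX2, 6.82% occurred in other genes, 4.49% in DUOX1.

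**Figure D2:**
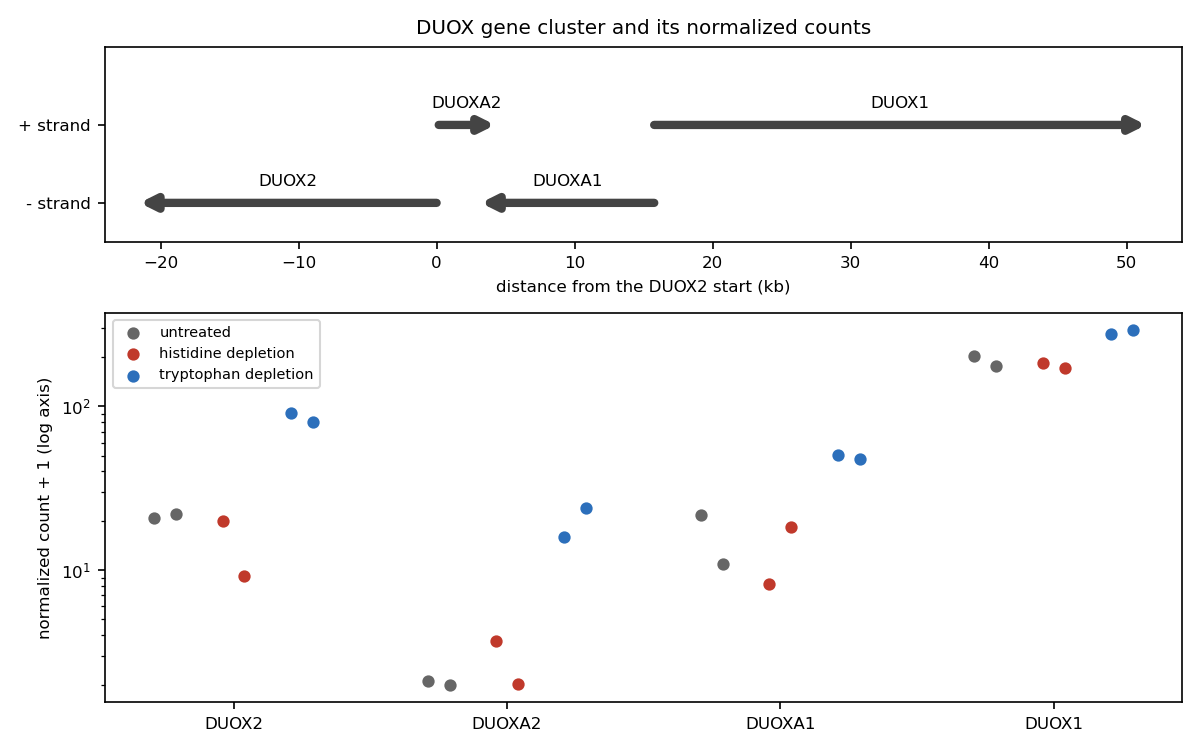
The upper panel maps the DUOX genes by distance from the DUOX2 start in kilobases, with arrows in the direction of transcription. The lower panel gives the normalized count + 1 of each gene on a log axis with a point per library; the tryptophan-depleted libraries are the highest for all 4 genes.

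The other 4 genes were near or at the limit of detection. C3 had normalized counts of 4.37 and 5.97 in untreated cells, 17.2 and 10.2 without histidine, and 4.27 and 2.75 without tryptophan. Its read ratio of histidine-depleted to untreated cells was 2.67 (1.26 to 6.13), from 29 and 10 reads, and 11.7% of its exon bases are shared with another gene annotated on the same strand (ENSG00000276980). DMBT1 was at 2.19 and 0 in untreated cells, 8.13 and 5.09 without histidine, and 0 and 0.916 without tryptophan, with a ratio of 6.43 (1.48 to 58.3) from 14 and 2 reads in the former comparison.

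PIGR differed from the rest in having its highest values in untreated cells. They were 9.84 and 12.9 there, 4.52 and 6.10 without histidine, and 8.54 and 3.66 without tryptophan. The read ratios to untreated cells were 0.459 (0.201 to 0.989) and 0.516 (0.233 to 1.09). They rest on 11 and 12 reads after the depletions against 22 in untreated cells. NOS2, the inducible nitric oxide synthase, had 0 reads in every library, where 3 reads would correspond to 0.0466 to 0.0647 RPM (reads scaled to library size alone). On GRCh38, PIGR (ENSG00000162896) lies on chromosome 1 at 206928522 to 206946466 (minus strand), DMBT1 (ENSG00000187908) on chromosome 10 at 122560665 to 122643736 (plus strand), C3 (ENSG00000125730) on chromosome 19 at 6677704 to 6730562 (minus strand) and NOS2 (ENSG00000007171) on chromosome 17 at 27756766 to 27800529 (minus strand).

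Set against the whole transcriptome, calls were common: limma, at an adjusted p of 0.05 over the genes whose mean normalized count reached 10, called 39.1% of 18288 genes higher and 38.2% lower after histidine depletion, 36.1% of 17960 higher and 34.8% lower after tryptophan depletion, and 39.9% of 18276 higher and 38.4% lower in histidine-depleted against tryptophan-depleted cells. After histidine depletion 4 of the 10 genes passed the minimum, of which SAA1 and SLPI were called higher, LCN2 lower and DUOX2 was not called. After tryptophan depletion LCN2, SLPI and DUOX2 passed it and were called higher. Between the depletions 6 passed it, with SAA1, SAA2 and SLPI called higher and LCN2, DUOX2 and DUOXA2 lower without histidine. SAA2 and DUOXA2 fell below the minimum without either library of the group in which they were high. Since the genes were chosen on these contrasts, and a gene low in the other groups passed the minimum only through the group where it was high, nothing is read from these counts. The median log2 fold change over all tested genes was 0.010, 0.013 and 0.018 in the 3 comparisons.

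**Figure D3:**
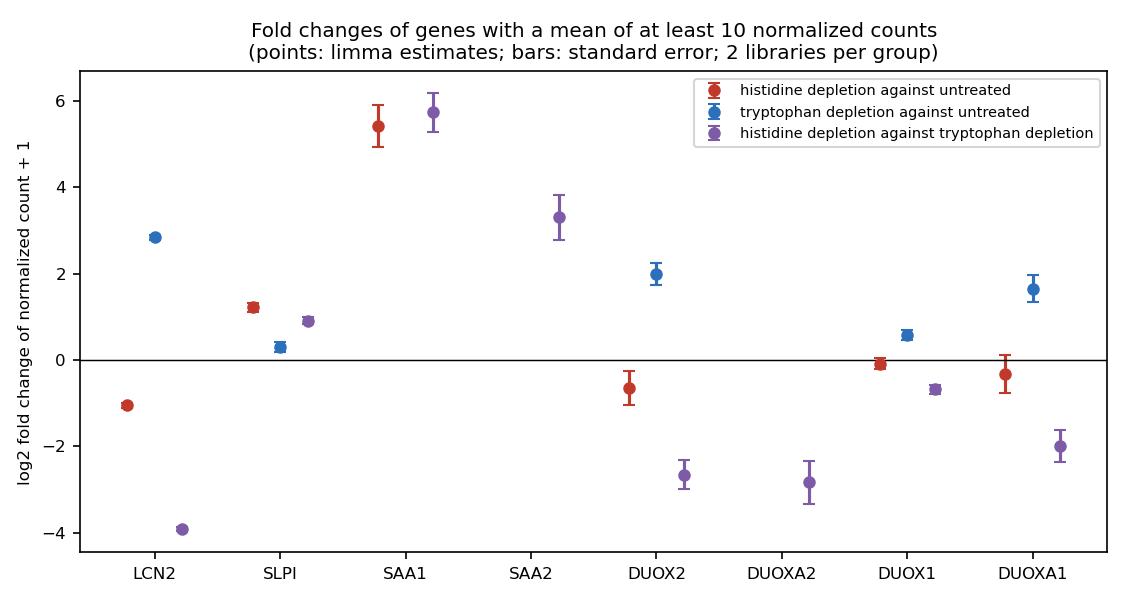
Log2 fold changes of the normalized count + 1 (limma estimates, bars for the standard error, 2 libraries per group) in the 3 comparisons, for the genes whose mean normalized count reached 10 in that comparison, with DUOX1 and DUOXA1 added. LCN2 lies below 0 after histidine depletion and above it after tryptophan depletion, while SLPI lies above 0 in both.

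By distance over the 6 libraries (Euclidean, on the log2 of the jointly scaled count + 1 less the untreated mean, among 11414 protein-coding candidates), the genes most like LCN2 were GJB6 at 0.32, PIERCE2 at 0.67 and XYLT1 at 0.67. GJB6 had means of 113 normalized counts in untreated cells, 61.3 after histidine depletion and 885 after tryptophan depletion. The genes most like SLPI were REXO4 at 0.10, VPS37C at 0.11 and ZFYVE26 at 0.12, and REXO4 went from a mean of 2923 to 6903 and 3551. These are likenesses of pattern over 3 conditions only.

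The related genes were taken from 7 lists of 206 genes in all. The 2 depletions share their untreated libraries, so their values are given side by side. Among 34 antimicrobial peptides and lectins, 12 were tested after histidine depletion, of which 3 rose and 6 fell (median log2 fold change -0.48), and 12 after tryptophan depletion, of which 4 rose and 5 fell (median -0.32). LYZ, the lysozyme gene, fell by 2.31 on the log2 scale after histidine depletion (SE 0.064, limma, adjusted p = 4.85e-20), from 64763 and 69381 normalized counts to 12419 and 14442, and stood at 38031 and 38058 after tryptophan depletion. REG4, a secreted lectin, fell by 3.49 (SE 0.18) without histidine and fell by 4.83 (SE 0.20) without tryptophan. PI3, or elafin, a protease inhibitor of the same family as SLPI, rose after histidine depletion, from 106 and 128 to 298 and 280, and fell after tryptophan depletion, to 8.54 and 20.1. ADM, which encodes the peptide adrenomedullin, rose by 3.83 (SE 0.072) and 1.28 (SE 0.10).

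Of 22 acute phase proteins, the group to which the SAA genes belong, 4 were tested after histidine depletion, where 1 rose and 3 fell (median -0.83). SERPINA1, the alpha-1-antitrypsin gene, fell by 2.24 (SE 0.070, limma, adjusted p = 4.96e-19), from 11763 and 12070 to 2232 and 2830. CD14, a co-receptor for lipopolysaccharide, fell by 0.96 (SE 0.19) and LRG1 by 0.71 (SE 0.079). After tryptophan depletion 3 of 6 rose and 1 fell (median 0.52), with CD14 1.73 (SE 0.12) higher and SERPINA1 0.36 (SE 0.047) lower. LRG1, at -0.13 (SE 0.064), did not pass the threshold there, though it passed with edgeR. As for LCN2, the CD14 values of the 3 groups did not overlap, at 104 and 119 in untreated cells, 50.6 and 63.1 without histidine, and 380 and 367 without tryptophan.

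Complement had 18 of 34 genes tested, with 9 higher and 4 lower after histidine depletion (median 0.66) and 9 higher and 2 lower after tryptophan depletion (median 0.44). C5AR1, the receptor for the C5a fragment, rose by 2.05 (SE 0.13) and by 2.09 (SE 0.13). CD55, which protects cells from complement, rose by 0.66 (SE 0.052) and by 1.47 (SE 0.047). C5, the component from which C5a is cut, fell by 1.63 (SE 0.16) without histidine and fell by 1.07 (SE 0.14) without tryptophan.

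In the list for oxidant and nitric oxide synthesis, 5 of 20 tested genes rose and 11 fell after histidine depletion (median -0.33), and 9 of 21 rose and 9 fell after tryptophan depletion (median 0.0038). NOX1, the main NADPH oxidase of colon epithelium, fell in both, from 581 and 616 normalized counts to 94.9 and 94.6 without histidine and to 58.7 and 68.7 without tryptophan (limma, adjusted p = 1.59e-16 and 2.45e-53). Its direction after tryptophan depletion was thus the opposite of that of DUOX2. ARG2, a mitochondrial arginase, rose by 2.58 (SE 0.095) and 2.62 (SE 0.094). ASS1, which makes the arginine precursor argininosuccinate, fell by 0.29 (SE 0.058) without histidine, a call lost in limma without the trend, and rose by 1.97 (SE 0.047) without tryptophan. NOSTRIN, a trafficking protein of nitric oxide synthase, fell by 1.70 (SE 0.092) and 1.89 (SE 0.086).

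Among receptors and partners of the 10 proteins, 8 of 19 were tested, with 7 higher and 1 lower after histidine depletion (median 0.65), and 3 higher and 4 lower after tryptophan depletion (median -0.08). SCARB1, a lipoprotein receptor that binds serum amyloid A, fell by 1.50 (SE 0.053) after histidine depletion, from 4069 and 4053 to 1422 and 1437. After tryptophan depletion the SCARB1 log2 fold change ranged from -0.15 to -0.11 over the alternatives. Its call was lost in limma without the trend, and without tryptophan depletion replicate 1 (-0.12) or replicate 2 (-0.13). TLR4, the lipopolysaccharide receptor, rose from 103 and 124 to 294 and 279 without histidine (limma, adjusted p = 1.68e-09) and fell to 21.3 and 22.9 without tryptophan (adjusted p = 2.04e-17). PLSCR1, a membrane protein that binds SLPI, rose by 1.16 (SE 0.050) and 0.50 (SE 0.048). LGALS3, the galectin-3 gene, rose by 1.15 (SE 0.055) and 1.04 (SE 0.047).

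Regulators and receptors of induction were mostly expressed. After histidine depletion 24 of 41 rose and 11 fell (median 0.19), and after tryptophan depletion 31 of 40 rose and 6 fell (median 0.43). TNFAIP3, which encodes the NF-kB inhibitor A20, rose by 4.50 (SE 0.078, limma, adjusted p = 1.19e-23) after histidine depletion, from 175 and 154 to 3913 and 3519, and fell to 86.4 and 89.7 after tryptophan depletion. SOCS3, an inhibitor of cytokine signalling that STAT3 induces, rose by 3.21 (SE 0.15) and 1.05 (SE 0.19). KLF4 rose by 2.97 (SE 0.056) and 1.99 (SE 0.058), and the interleukin receptor gene IL6R by 2.91 (SE 0.067) and 2.02 (SE 0.073).

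Within that list 2 families, picked out after their values were seen, are given as a description. The NF-kB subunit genes all rose after histidine depletion, RELB by 2.76 (SE 0.065), NFKB2 by 2.29 (SE 0.063), RELA by 2.14 (SE 0.052), NFKB1 by 1.42 (SE 0.049) and REL by 0.52 (SE 0.070). After tryptophan depletion the same genes ranged from -0.52 for NFKB1 to 0.49 for RELB, and REL, at -0.06 (SE 0.071), did not pass the threshold. NFKB2, at 0.18, lost its call under 5 of the other settings, DESeq2 and leaving out untreated replicate 1 (0.058) or tryptophan depletion replicate 1 (0.12) among them. The 4 C/EBP genes of the list all rose after tryptophan depletion, CEBPD by 1.71 (SE 0.10), CEBPA by 1.32 (SE 0.076), CEBPB by 1.19 (SE 0.049) and CEBPG by 1.04 (SE 0.049). After histidine depletion CEBPA fell by 1.90 (SE 0.12), and CEBPB at -0.05, CEBPD at -0.21 and CEBPG at 0.01 did not pass the threshold. The sign of CEBPB without untreated replicate 2, and of CEBPG with quantile normalization or without untreated replicate 1, was the opposite. NFKBIZ, the nuclear cofactor of LCN2 transcription, rose by 0.45 (SE 0.072) and by 0.53 (SE 0.053). Over the alternatives STAT3, a STAT gene of the same list, ranged from 1.18 to 1.44 after histidine depletion and from 0.15 to 0.25 after tryptophan depletion.

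**Figure D4:**
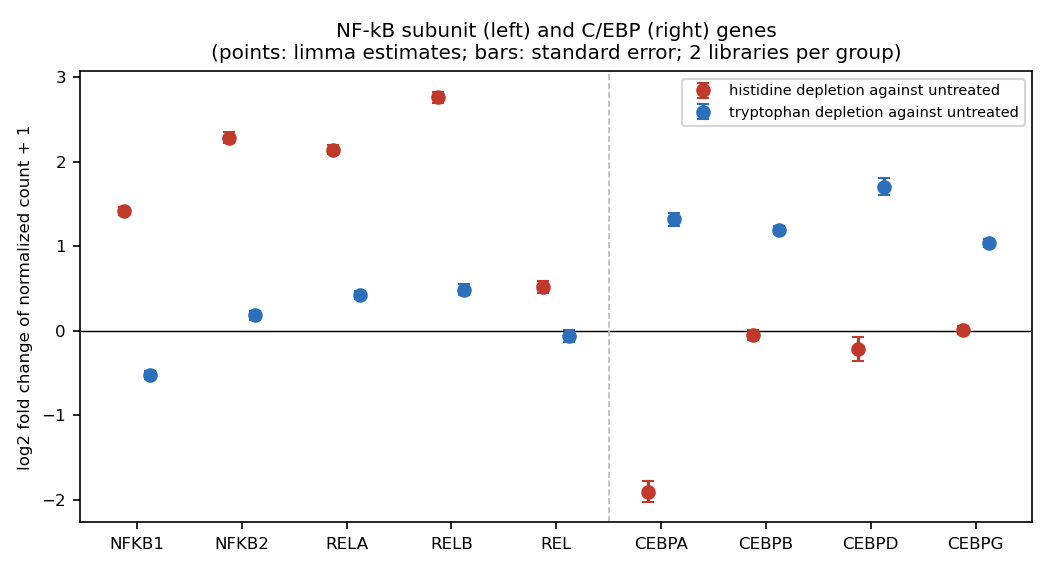
Log2 fold changes of the normalized count + 1 against untreated cells (limma estimates, bars for the standard error, 2 libraries per group) of 5 NF-kB subunit genes and 4 C/EBP genes. The NF-kB genes lie between 0.52 and 2.76 after histidine depletion, and the C/EBP genes between 1.04 and 1.71 after tryptophan depletion.

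Of 22 cytokines that can induce the 10 genes, 7 were tested after histidine depletion, of which 6 rose (median 1.42), and 5 after tryptophan depletion, of which 1 rose and 2 fell (median -0.74). LTB, which encodes lymphotoxin beta, rose from 23.0 and 31.8 normalized counts to 204 and 174 without histidine (limma, adjusted p = 6.34e-12) and fell to 12.8 and 8.24 without tryptophan (adjusted p = 0.0011). LIF rose by 0.88 (SE 0.056) and 0.21 (SE 0.057), the latter no longer called without tryptophan depletion replicate 2 (0.14). IL18 rose by 0.62 (SE 0.082) and fell by 0.77 (SE 0.099).

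Library depth ranged from 46390819 to 64388876 reads. Replicates of each group differed by more than counting noise, with a chi-square per degree of freedom of 8.77 in untreated cells, 4.03 without histidine and 1.85 without tryptophan. Of 12 colon epithelium markers, 7 had at least 1000 normalized counts in every library, and their summed level was 429654 to 456075 in untreated cells, 525909 to 554385 after histidine depletion and 607204 to 610631 after tryptophan depletion. After histidine depletion 4 of the 12 were called higher and 8 lower (median log2 fold change -0.55), and after tryptophan depletion 6 higher and 3 lower (median 0.24). KRT20 rose, from 10264 and 10759 to 34599 and 35063 without histidine, while CDX1 was at 21.9 and 18.9 in untreated cells and at 0 in both histidine-depleted libraries, and GPA33 went from 78.7 and 75.6 to 2.71 and 10.2. Of 14 leukocyte and mast cell markers, 9 (PTPRC, CD3E, MS4A1, CD68, FCGR3B, ELANE, TPSAB1, CPA3 and KIT) had at most 3 reads in each library and 5 were at 0 in all. The summed level of the 14 was 89.6 to 110 in untreated cells, 143 to 149 after histidine depletion and 23.5 to 30.2 after tryptophan depletion, with ITGAM giving most of it in untreated and histidine-depleted cells (65.6 to 103), and their part in the values of SAA1, SLPI and LCN2 was not tested. The 6 stroma and endothelium markers summed to between 81.3 and 129.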

How the data were processed

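RNA of HT29 cells was sequenced in 6 libraries, 2 per group, from polyadenylated RNA with a stranded protocol. Alignment to GRCh38 was done by the authors with STAR 2.7.10a and counting per gene with HTSeq 2.0.5 on gencode release 38. They deposited a table for each depletion, the same untreated libraries in both, that holds DESeq2-normalized counts (a signal, at or above 0). Whether the molecular identifiers of the adapters were used is not given in the sources used here. Each deposited value was divided by the step of its library, which gave whole reads (within 0.001) for 100% of the values, between 46390819 and 64388876 reads per library.

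Fold changes against untreated cells were fitted within a table, and those between the depletions on recovered reads scaled jointly by median-of-ratios size factors, with limma 3.58.1 in R 4.3.3 (trend, two-sided) on log2(normalized count + 1), where the mean count reached 10, with Benjamini-Hochberg adjustment over all tested genes and a threshold of 0.05. Folds on this scale understate the change of low genes. Levels per library are jointly scaled. For genes with few reads, read ratios are given with exact 95% intervals in some comparisons. Calls on recovered reads numbered 7169 higher and 7111 lower with edgeR 4.0.16, and 6330 and 6154 with DESeq2 1.42.0, after histidine depletion. Names and coordinates come from gencode release 44 (60357 of 60676 identifiers found) and promoters from RefSeq. Python 3.11.15 with pandas 2.3.3 and matplotlib 3.10.9 was used, and the code was tested on simulated data.

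The 10 genes and all lists were chosen with earlier results of these data known. Named from each list were up to 3 genes per depletion with the largest change past the threshold among genes whose groups did not overlap and whose higher group averaged 100 or more, together with the neighbours in the DUOX and SAA clusters and, for genes averaging 100 or more, the 3 most similar patterns. A gene selected by this rule is not reported here. NF-kB and C/EBP genes, NFKBIZ and STAT3 were added after their values were seen. Tried as alternatives were edgeR, DESeq2, quantile normalization, pseudocounts of 0.5 and 8, limma with the trend off, a minimum mean of 50 or none, a replicate block, 1 fit over the 6 libraries, and each library left out.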

Additional observations from a re-analysis of the deposited data

How the results depend on the processing

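For the 10 genes, 166 of 170 values under the alternatives kept their direction and side of the threshold, 3 lost the call (all SLPI after tryptophan depletion), 1 gained it (DUOX2 after histidine depletion, -1.21 without histidine depletion replicate 1, the remaining library being assumed to vary like the untreated pair) and 0 changed sign. A gene below the minimum mean under a setting gave no value there, so the 170 leave out some fits of SAA1, SAA2, DUOX2 and DUOXA2. Since the 10 genes were chosen on these contrasts, the count describes the processing only and gives no support to the calls. Over the alternatives the log2 fold change of LCN2 ranged from -1.27 to -0.98 after histidine depletion and from 2.80 to 2.89 after tryptophan depletion. That of SAA1 after histidine depletion ranged from 3.21 to 6.26. The number of the 10 genes called depended on the filter, by construction, since it sets which genes are tested. With no filter it was 4 higher after histidine depletion, beside 7768 of all genes, and 5 higher between the depletions, beside 8077. With a mean of at least 50 it was 1 higher after histidine depletion, beside 5870 of all genes. Between the depletions it was then 1 higher and 1 lower, beside 6055 and 5912. Nothing is read from these counts. With each library left out in turn the genes called after histidine depletion also changed, with SAA2 added without either untreated library and C3 without untreated replicate 2. SAA2 between the depletions fell below the minimum mean without either histidine-depleted library or in the fit on all 6 libraries, as did DUOXA2 without either tryptophan-depleted library or in that fit.

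Of the other named genes, 22 of 1633 values lost the call and 8 gained it. After tryptophan depletion NFKB2 lost it under 5 settings (down to 0.058 without untreated replicate 1) and LIF under 2, and after histidine depletion ASS1 lost it and CEBPD gained it in limma without the trend, and CEBPB gained it with quantile normalization or without untreated replicate 1. Another 13 changed sign, all to between -0.26 and 0.25; the cause was not tested. Under quantile normalization these were DUOX1 (0.023) and CEBPG (-0.26) after histidine depletion, REL (0.060) after tryptophan depletion, and C5AR1 (0.077), ARG2 (0.022) and LGALS3 (-0.068) between the depletions. With each library left out in turn, values after histidine depletion ranged from -0.19 to 0.015 for DUOX1 and from -0.90 to 0.25 for DUOXA1, from -0.13 to 0.036 for CEBPB and from -0.022 to 0.048 for CEBPG. DUOX1 and CEBPG changed sign without untreated replicate 1, CEBPB without untreated replicate 2, and DUOXA1 without untreated replicate 1 (0.17) or histidine depletion replicate 1. Between the depletions C5AR1 ranged from -0.13 to 0.031 (above 0 without histidine depletion replicate 1) and NFKBIZ from -0.22 to 0.037 (above 0 without histidine depletion replicate 2, and called at -0.22 without replicate 1 and at -0.09 with a replicate block).

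Same-numbered libraries showed no shared deviation over the genes: the correlations of same-numbered deviations were 0.042, 0.0020 and -0.041. These values cannot tell whether same-numbered libraries were grown or prepared together. With a replicate block, 7311 genes were higher and 7121 lower after histidine depletion, 6501 and 6265 after tryptophan depletion, and 7299 and 7036 between the depletions, and the calls of the 10 genes were the same. Depth limits C3, DMBT1, PIGR and DUOXA2, which rest on 39 reads or fewer per group.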
